A study of Homo sapiens with 6 samples.

Results

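The genes described here are 10 cytokine, chemokine and adhesion genes that are known to be switched on through the transcription factor NF-kB, out of 26967 named genes in the series. They are the chemokines CCL2, CCL20, CXCL1, CXCL2 and CXCL8, the interleukins IL1A, IL1B and IL6, the cytokine LIF and the adhesion molecule ICAM1. The members were given by name, and all RefSeq transcript rows of a gene were summed. RNA-seq had been done on UWB1.289, a BRCA1-deficient line grown from a human ovarian cancer, in 3 libraries with a lentiviral hairpin against HBO1 (shHBO1) and 3 libraries with a control hairpin (shCTRL). HBO1 is a histone acetyltransferase, and its gene is KAT7. Both groups were transduced in the presence of polybrene at 10 µg/mL and, from 96 h on, selected in puromycin at 1 to 3 µg/mL. The libraries carry the numbers 1 to 3 in each group. The labels do not say how many hairpins were used, when RNA was taken after selection, or whether the numbered libraries were separate cultures, so each p-value reflects how these 6 libraries vary, which could be technical variation.

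NF-kB dimers are held in the cytoplasm by inhibitors of the IkB family and are released when receptors for TNF, interleukin-1 or bacterial products activate the IkB kinase complex. In the nucleus they turn on cytokines, chemokines and adhesion molecules, and also their own inhibitors, which closes a feedback loop. In ovarian carcinoma cells this programme is known as a source of secreted CXCL8, IL-6 and CCL2, which act on the tumour cells themselves, on endothelium and on incoming leukocytes.

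The labels and the line were checked before the members were read. KAT7 had 1008, 872 and 784 normalized counts in shHBO1 libraries 1, 2 and 3, against 3616, 3952 and 3554 in shCTRL libraries 1, 2 and 3, a log2 fold change of -2.07 (SE 0.11, limma adjusted p = 0.00123). By exact permutation over the libraries the two-sided p was 0.1, the minimum for groups of this size. The libraries held between 35940400 and 39908703 recovered reads. The ovarian epithelial markers PAX8, EPCAM, KRT7, KRT8, KRT18 and KRT19 were abundant, with EPCAM between 26479 and 29891 normalized counts in the 6 libraries, whereas WT1, also on that list, had at most 18.3 in shHBO1 and 26.2 in shCTRL. MUC16, the CA125 antigen, had 987, 846 and 399 in shHBO1 libraries 1, 2 and 3, against 1277, 1107 and 533 in shCTRL. It was lower in all 3 pairs, as were 17.1% of all tested genes, and the groups overlapped. The log2 fold change was -0.39 (without the block SE 0.41, confidence interval -1.35 to 0.56, limma unadjusted p = 0.37). With the replicate number as a block the limma adjusted p was 0.125. Between number 3 and number 1 MUC16 differed by -1.28 on the log2 scale. Libraries of the same number deviated together, and 1469 of 15173 tested genes (9.68%) differed between the numbers (limma F test, adjusted p under 0.05), so every member is also given by number.

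Levels were compared between members per kilobase of the most abundant transcript row, and CXCL8 was highest and IL1B and CCL20 were lowest. CXCL8, the neutrophil-attracting chemokine IL-8, had 3726 ± 560 normalized counts per kilobase in shHBO1 and 4461 ± 910 in shCTRL (SD, n = 3 each). CXCL1, a chemokine of the same receptor, had 2621 ± 585 per kilobase in shHBO1 and 2436 ± 269 in shCTRL. ICAM1, the surface ligand of leukocyte integrins, had 1675 ± 483 per kilobase in shHBO1 and 2119 ± 636 in shCTRL. The ranges of CXCL1 and ICAM1 overlapped in both groups, and those of CXCL8 and CXCL1 overlapped in shHBO1 but not in shCTRL.

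LIF, an IL-6 family cytokine, came next in order on the row used, at 647 ± 88.6 per kilobase in shHBO1 and 608 ± 115 in shCTRL, apart from its neighbours in both groups. This level uses the LIF row of 3969 bases alone. A LIF row of 592 bases held a further 398 ± 271 normalized counts in shHBO1 and 583 ± 237 in shCTRL, not divided by length. The gap between LIF and ICAM1 is therefore not settled. IL1A, IL6 and CCL2 formed a middle tier: IL1A had 219 ± 17.9 per kilobase in shHBO1 and 188 ± 38.6 in shCTRL, IL6 had 169 ± 6.91 in shHBO1 and 153 ± 19.8 in shCTRL, and CCL2 had 163 ± 59.0 in shHBO1 and 308 ± 124 in shCTRL. CXCL2 followed with 63.4 ± 5.06 per kilobase in shHBO1 and 64.4 ± 20.8 in shCTRL. IL1B had 9.18 ± 3.61 per kilobase in shHBO1 and 26.2 ± 7.38 in shCTRL, and CCL20 had 7.66 ± 3.83 in shHBO1 and 4.64 ± 2.07 in shCTRL. IL1B and CCL20 overlapped in shHBO1 and did not overlap in shCTRL, where IL1B was the higher of the pair. The reads of CCL20 were split over rows of 839 and 800 bases and this level uses the shorter one alone, so the order of CCL20 and IL1B in shHBO1 is not settled.

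**Figure D1:**
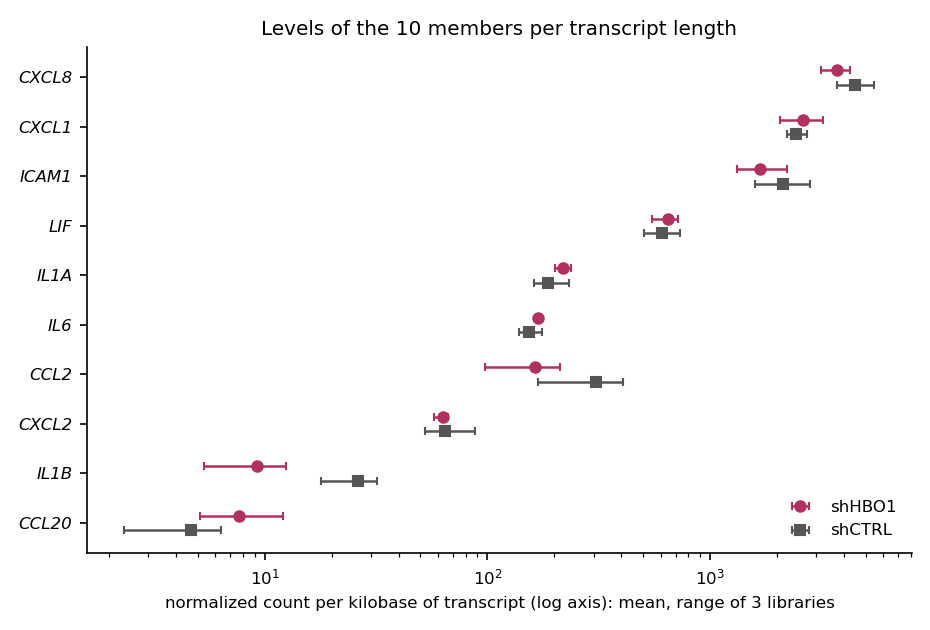
Normalized count per kilobase of the most abundant transcript row (log axis) for the 10 members, with shHBO1 above shCTRL in each row; symbols are means and bars the range of 3 libraries. CXCL8 leads in both groups, at 3726 in shHBO1 and 4461 in shCTRL, and CCL20, of which 1 of 2 transcript rows is used, stands at 7.66 in shHBO1 and 4.64 in shCTRL.

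The comparison asked which members differed between the shHBO1 and shCTRL libraries. Of the 10 members, 9 passed the filter of a mean of at least 10 normalized counts and 0 of these passed an adjusted p of 0.05 in limma without a block, where 0.00659% of all tested genes were called. With the replicate number as a block 0 of 9 passed, where 0.125% of all tested genes were called. At an unadjusted p under 0.05 there was 1 member without the block (IL1B; 3.55% of all tested genes) and 4 with it (CCL2, ICAM1, IL1B and CXCL8; 11.3% of all tested genes). On the recovered reads edgeR called 0 members with or without the block, and DESeq2 called 0 without it and 2 with it, CCL2 and ICAM1, where DESeq2 called 1.13% of the genes to which it gave an adjusted p. The median log2 fold change of the 9 members was -0.064, with 6 estimates below 0 and 3 above, and that of all tested genes was 0.00013. In these bulk samples a smaller share of expressing cells and less RNA per cell cannot be told apart.

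**Figure D2:**
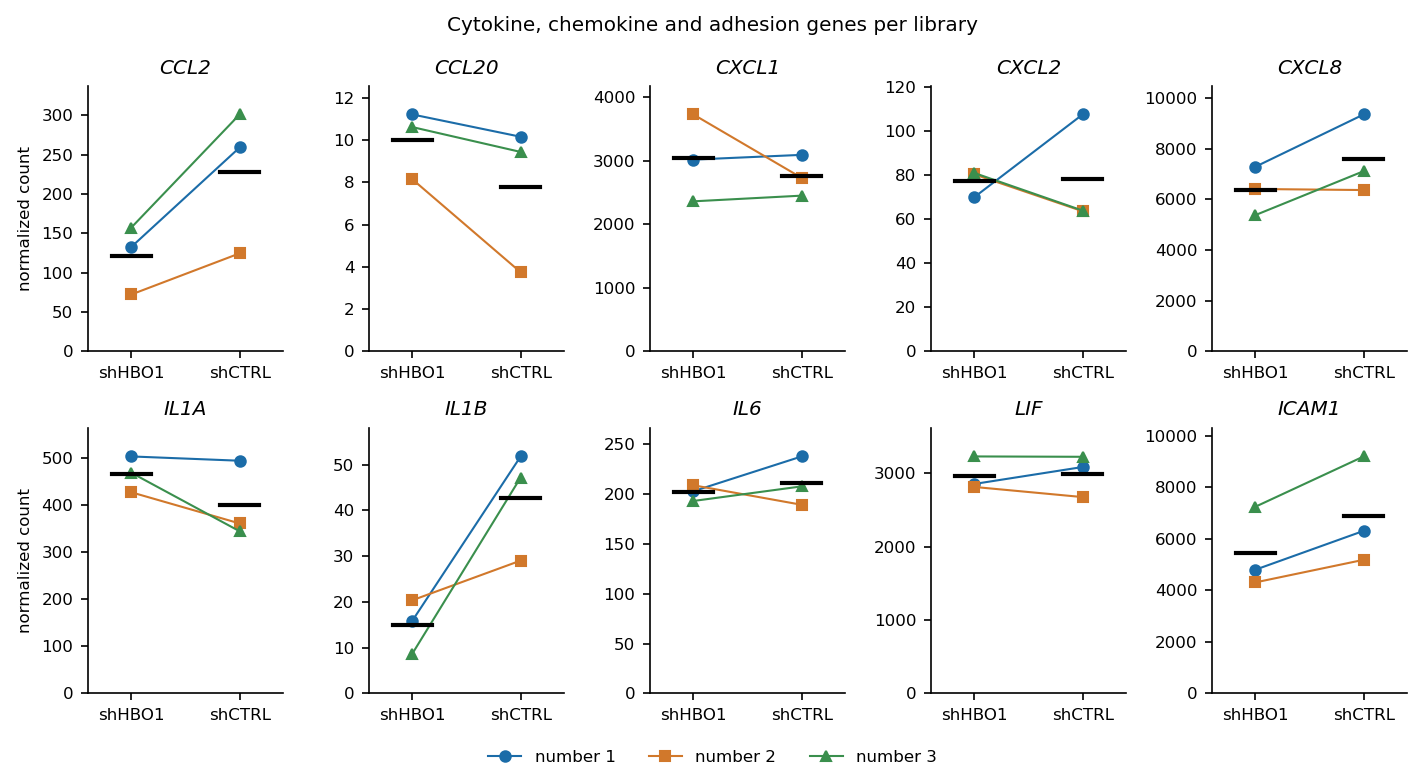
Normalized counts of the 10 members in each library, shHBO1 left and shCTRL right in each panel; lines join libraries of the same number and black bars are group means. CCL2, IL1B and ICAM1 lie lower in shHBO1 in each of the 3 numbered pairs, and IL1A and CCL20 lie higher.

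IL1B and IL1A encode the interleukins 1-beta and 1-alpha, which bind the same receptor and are themselves strong inducers of NF-kB. IL1B had 15.9, 20.4 and 8.68 normalized counts in shHBO1 libraries 1, 2 and 3, against 51.8, 29.03 and 47.2 in shCTRL. All 3 shHBO1 values lay below all 3 shCTRL values, which was so for 4.44% of all tested genes, and IL1B was the only tested member of which it held. For 4.49% of all tested genes all 3 shHBO1 values lay above, and 0 members were among them. The mean was 14.98 ± 5.89 in shHBO1 and 42.7 ± 12.0 in shCTRL (SD, n = 3 each), a log2 fold change of -1.48 (SE 0.40, 95% confidence interval -2.42 to -0.55, limma adjusted p = 1.00, and 0.244 with the block). These values rest on few reads, between 9 and 20 per shHBO1 library and between 31 and 51 per shCTRL library. DESeq2 with the block gave IL1B no adjusted p. Without the number 3 libraries the log2 fold change was -1.07.

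IL1A, which lies next to IL1B on chromosome 2 with 0 protein-coding genes between them, had an estimate of the opposite sign. It had 503, 427 and 468 normalized counts in shHBO1 libraries 1, 2 and 3, against 494, 361 and 344 in shCTRL. The groups overlapped, although shHBO1 was above shCTRL in all 3 numbered pairs, as for 15.3% of all tested genes. On the log2 scale the estimate for IL1A was 0.24 (SE 0.16, 95% confidence interval -0.14 to 0.61). The ratio of the IL1B count to the IL1A count, in percent, was 3.16%, 4.77% and 1.86% in shHBO1 libraries 1, 2 and 3, against 10.5%, 8.05% and 13.7% in shCTRL. This ratio combines the values already given and is no separate evidence. No stretch of 50 bases was shared between the 2 transcripts.

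CCL2 encodes the monocyte-attracting chemokine MCP-1. It had 133, 72.3 and 157 normalized counts in shHBO1 libraries 1, 2 and 3, against 259, 125 and 301 in shCTRL. The groups overlapped because both number 2 libraries were low, but within each number the shHBO1 value was lower, at 51.2%, 58.0% and 52.3% of its shCTRL counterpart. Among all tested genes 17.1% were lower in all 3 pairs, and among the 9 tested members this was so for CCL2, IL1B and ICAM1. CCL2 averaged 121 ± 43.7 in shHBO1 and 228 ± 92.2 in shCTRL (SD, n = 3 each), a log2 fold change of -0.89 (SE 0.40, 95% confidence interval -1.81 to 0.030). With the block the SE was 0.14, the interval -1.21 to -0.57 and the limma adjusted p = 0.0821. DESeq2 with the block put CCL2 past the threshold (adjusted p = 0.0168), and so did limma on the number 1 and 2 pairs with the block (adjusted p = 0.00370), a fit with 1 residual degree of freedom that called 14.2% of all tested genes.

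CCL20, which attracts lymphocytes and dendritic cells through the receptor CCR6, was the member that did not pass the filter. Its normalized counts were 11.2, 8.15 and 10.6 in shHBO1 libraries 1, 2 and 3, against 10.2, 3.75 and 9.44 in shCTRL, from 4 to 12 reads per library. The groups overlapped, and with no filter on low values the log2 fold change was 0.41 (limma adjusted p = 0.997). Its reads were split between 2 RefSeq transcripts, NM_001130046 and NM_004591.

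The neutrophil-attracting chemokines CXCL8, CXCL1 and CXCL2 lie in 1 cluster on chromosome 4, with 2 protein-coding genes between CXCL8 and CXCL1 and 7 between CXCL8 and CXCL2. CXCL8 had 7281, 6405 and 5375 normalized counts in shHBO1 libraries 1, 2 and 3, against 9345, 6364 and 7108 in shCTRL. The shHBO1 values were lower in numbers 1 and 3 and nearly equal in number 2, and the groups overlapped. The estimate for CXCL8 was -0.25 on the log2 scale (SE 0.16, 95% confidence interval -0.62 to 0.12; with the block -0.44 to -0.059, limma adjusted p = 0.324).

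CXCL1 had 3019, 3730 and 2362 normalized counts in shHBO1 libraries 1, 2 and 3, against 3094, 2732 and 2452 in shCTRL. Only the number 2 pair differed by more than a few percent, with shHBO1 at 137% of shCTRL, and over all libraries CXCL1 was estimated at 0.12 (log2 fold change, SE 0.17, 95% confidence interval -0.26 to 0.51). These sums include a less abundant CXCL1 row, with 193, 189 and 102 in shHBO1 libraries 1, 2 and 3, against 96.5, 134 and 31.5 in shCTRL. With the most abundant row alone the log2 fold change of CXCL1 was 0.088. CXCL2 had 70.1, 80.4 and 81.1 normalized counts in shHBO1 libraries 1, 2 and 3, against 108, 63.7 and 64.0 in shCTRL. The number 1 pair and the other two pairs went in opposite directions, and CXCL2 was estimated at 0.019 (log2 fold change, SE 0.26, 95% confidence interval -0.58 to 0.62).

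CXCL1, CXCL2 and CXCL3 are close paralogs, and reads from stretches they share could have been assigned to any of them, so their counts are uncertain to that extent. Of the 50-base windows of the CXCL2 transcript, 5.13% also occurred in CXCL1 and 4.62% in CXCL3. CXCL3 itself had 218, 108 and 181 normalized counts in shHBO1 libraries 1, 2 and 3, against 116, 98.3 and 132 in shCTRL, with a log2 fold change of 0.50 (SE 0.28, limma adjusted p = 1.00).

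IL6 and LIF both signal through the receptor chain gp130, encoded by IL6ST. IL6 had 203, 209 and 193 normalized counts in shHBO1 libraries 1, 2 and 3, against 238, 189 and 208 in shCTRL, and LIF had 2856, 2816 and 3232 in shHBO1 against 3088, 2678 and 3227 in shCTRL. In both genes the groups overlapped and the pairs disagreed in sign. The log2 fold change was -0.064 for IL6 (SE 0.15, 95% confidence interval -0.40 to 0.28) and -0.013 for LIF (SE 0.097, 95% confidence interval -0.24 to 0.21). Both genes also had a less abundant transcript row that varied between libraries of 1 group. For IL6 it was NM_001318095, with 5.61, 0 and 0 in shHBO1 libraries 1, 2 and 3 and 66.0, 25.3 and 0 in shCTRL. For LIF it was NM_001257135, with 679, 140 and 375 in shHBO1 and 769, 664 and 317 in shCTRL. With the most abundant row alone, the log2 fold change was 0.15 for IL6 and 0.097 for LIF.

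ICAM1 had 4797, 4305 and 7239 normalized counts in shHBO1 libraries 1, 2 and 3, against 6304, 5182 and 9191 in shCTRL. Both number 3 libraries were high, so the groups overlapped, and within the numbers shHBO1 was at 76.1%, 83.1% and 78.8% of shCTRL. On the log2 scale ICAM1 was estimated at -0.34 (SE 0.25, 95% confidence interval -0.91 to 0.24). With the block the SE was 0.055, the interval -0.46 to -0.21 and the limma adjusted p = 0.0967. DESeq2 with the block called ICAM1 (adjusted p = 0.000656), and so did limma with the block on the number 1 and 2 pairs (adjusted p = 0.000331). The DESeq2 fit called 1.13% of the genes to which it gave an adjusted p. The limma fit on 2 pairs has 1 residual degree of freedom and called 14.2% of all tested genes.

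**Figure D3:**
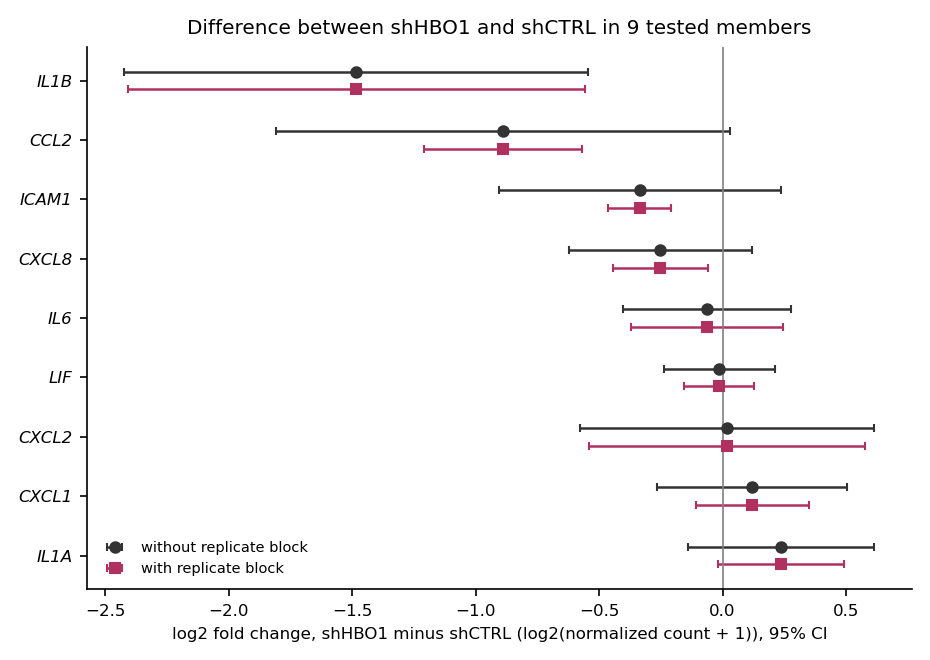
Log2 fold change (shHBO1 minus shCTRL, on the log2(normalized count + 1) scale) of the 9 tested members with 95% confidence intervals, without the replicate block (dark circles) and with it (red squares). IL1B at -1.48 and CCL2 at -0.89 are the lowest estimates; with the block the intervals of IL1B, CCL2, ICAM1 and CXCL8 lie below 0, and 0 members pass after adjustment over all genes.

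The members differ in what stands just upstream of their start sites. Stretches were taken for ICAM1, CXCL8 and IL1B, with lower estimates, and for CXCL1, CXCL2 and IL6, with estimates near 0. Without the block the confidence intervals of ICAM1 and CXCL8 included 0 and overlapped those of CXCL1, CXCL2 and IL6. Whether a motif goes with the difference between the groups was not tested. The RefSeq table on GRCh38.p14 held a window from 250 bases before to 50 after the start for 8 of the 10 members; CCL2 and LIF had none. The kappaB-like motif GGANNTTCC, searched on both strands, occurred in 5 of these 8 (ICAM1, CXCL8, CXCL1, CXCL2 and IL6) and in 4.56% of all 35116 windows, or at least 1 window of 5.57% of the 27305 genes. The motif was chosen with the members' windows already read, so its count is a description. In ICAM1, CXCL8, CXCL1 and CXCL2 the match reads on both strands at the same place. The stretches end at the base before the start, are written along the gene's strand, and carry the motif in capitals. They are, on GRCh38.p14, chr19:10270920-10271119 (plus strand) for ICAM1, chr4:73740449-73740568 (plus) for CXCL8, chr4:73869273-73869392 (plus) for CXCL1, chr4:74099196-74099315 (minus) for CXCL2, chr7:22727080-22727199 (plus) for IL6 and chr2:112836780-112836899 (minus) for IL1B.
ICAM1: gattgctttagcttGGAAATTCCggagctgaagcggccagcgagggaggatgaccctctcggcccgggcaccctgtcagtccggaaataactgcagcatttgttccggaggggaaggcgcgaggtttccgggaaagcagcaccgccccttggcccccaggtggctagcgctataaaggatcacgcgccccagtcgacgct
CXCL8: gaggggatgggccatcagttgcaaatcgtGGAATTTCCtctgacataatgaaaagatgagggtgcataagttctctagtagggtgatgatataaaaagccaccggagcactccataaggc
CXCL1: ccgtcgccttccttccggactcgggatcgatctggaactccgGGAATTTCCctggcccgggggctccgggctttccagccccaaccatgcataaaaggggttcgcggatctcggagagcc
CXCL2: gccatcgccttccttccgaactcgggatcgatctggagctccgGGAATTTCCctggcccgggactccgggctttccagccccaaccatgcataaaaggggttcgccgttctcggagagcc
IL6: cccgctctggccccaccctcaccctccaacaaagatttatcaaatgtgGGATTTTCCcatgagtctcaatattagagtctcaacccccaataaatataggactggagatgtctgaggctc
IL1B: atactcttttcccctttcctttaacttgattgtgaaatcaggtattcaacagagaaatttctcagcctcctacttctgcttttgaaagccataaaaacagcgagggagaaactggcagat

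CXCL8, CXCL1 and CXCL2 carry the same 9 letters, GGAATTTCC, at 91, 78 and 77 bases before the start. Their log2 fold changes were -0.25, 0.12 and 0.019. The confidence intervals without the block overlapped, at -0.62 to 0.12, -0.26 to 0.51 and -0.58 to 0.62. ICAM1 carries GGAAATTCC at 186 bases before the start and IL6 carries GGATTTTCC at 72. The AP-1 motif TGANTCA, the target of FOS and JUN dimers, occurred in the windows of IL1A and CXCL8, in 7.71% of all windows and in 9.37% of genes. TATAAA occurred in CCL20, IL1A, CXCL8 and ICAM1, in 11.5% of all windows and in 14% of genes. These letters were absent from the IL1B window, which says nothing about sites elsewhere.

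The rest of the pathway was read from lists of named genes. In the lists of other cytokines, other targets, subunits, inhibitors, adaptors and receptors, edgeR and DESeq2 also called 0 genes, with or without the block. Of 22 other cytokines and chemokines linked to NF-kB, 17 were tested and 0 passed with or without the block in limma. At an unadjusted p under 0.05 there were 1 without the block and 5 with it, against 3.55% and 11.3% of all tested genes. The median log2 fold change of these 17 was -0.029, with 8 estimates above 0 and 9 below. IL32, an inflammatory cytokine, had 5725, 5543 and 4973 normalized counts in shHBO1 libraries 1, 2 and 3, against 6503, 6068 and 6614 in shCTRL, without overlap (log2 fold change -0.24, SE 0.079). For 4.44% of all tested genes the shHBO1 values lay lower without overlap. LTB, which encodes lymphotoxin beta, had 1702, 1221 and 1459 in shHBO1 against 2137, 1574 and 1672 in shCTRL, lower in all 3 pairs, as were 17.1% of all tested genes (log2 fold change -0.30, SE 0.16). CCL5, a T cell chemokine, had 45.8, 29.5 and 15.4 in shHBO1 against 16.3, 0 and 15.7 in shCTRL, so its fitted log2 fold change of 2.12 depends on the value added before the log. CXCL6, CCL7, CCL8, CSF3 and IL33 were listed at 0 in all 6 libraries.

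Among 18 other NF-kB targets 15 were tested and 0 passed in limma with or without the block, with a median log2 fold change of -0.0062. At an unadjusted p under 0.05 there were 5 with the block and 0 without it, against 11.3% and 3.55% of all tested genes. The long pentraxin PTX3 had 4765, 5895 and 9064 normalized counts in shHBO1 libraries 1, 2 and 3, against 3219, 3217 and 9055 in shCTRL, a log2 fold change of 0.48 (SE 0.41). Other estimates were -0.24 for the activation marker CD83, -0.28 for the TNF receptor family member TNFRSF9, -0.47 for the acute-phase protein SAA1, -0.15 for the caspase-8 regulator CFLAR and -0.21 for TNFAIP2. The adhesion gene VCAM1 did not pass the filter.

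Of the subunits, inhibitors, adaptors and kinases of the pathway 0 passed in limma with or without the block. At an unadjusted p under 0.05 there were 0 without the block, and with it 0 subunits, 2 inhibitors and 1 of the adaptors and kinases. The share of all tested genes was 3.55% without the block and 11.3% with it. The 5 DNA-binding subunits had a median log2 fold change of -0.0087, with REL at 0.15, NFKB2 at -0.053 and RELB at -0.14. The 12 inhibitors and feedback genes had a median of 0.023. Among them the deubiquitinase OTUD7B was at 0.19, without overlap between the groups, the IkB family protein BCL3 was at -0.24, and ZFP36, which destabilizes cytokine mRNAs, was at -0.46 (SE 0.39). The 18 adaptors and kinases had a median of -0.00046, with the receptor-proximal kinase IRAK4 at -0.19, TAB1 at -0.13, MAP3K7 at 0.063 and BIRC2 at 0.088. The groups of IRAK4 did not overlap, 1 gene of these 18 against 4.44% lower and 4.49% higher without overlap among all tested genes, at 898, 885 and 839 normalized counts in shHBO1 libraries 1, 2 and 3, against 968, 1018 and 1000 in shCTRL.

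Of 21 receptors and antagonists 16 were tested and 0 passed in limma, with a median log2 fold change of -0.012. At an unadjusted p under 0.05 there were 5 with the block and 0 without it, against 11.3% and 3.55% of all tested genes. TNFRSF1B, the second TNF receptor, had 27.1, 7.13 and 46.3 normalized counts in shHBO1 libraries 1, 2 and 3, against 49.8, 35.6 and 84.9 in shCTRL, lower in all 3 pairs, as were 17.1% of all tested genes (log2 fold change -1.29, SE 0.65). TLR4, the lipopolysaccharide receptor, was at 0.43 (SE 0.53), TLR3 at -0.40 and the oncostatin M receptor OSMR at -0.27. The chemokine receptors that bind the members were at or near 0: CXCR1 was listed at 0 in all 6 libraries, and CXCR2, CCR2 and CCR6 had at most 2.89, 0.937 and 2.10 normalized counts in any library.

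The replicate numbers separated part of the set in both groups alike. CCL2 and ICAM1 were the 2 of 9 tested members that differed between numbers, where 9.68% of all tested genes did. ICAM1 was higher in number 3 than in number 1 by 0.57 on the log2 scale (SE 0.068), and CCL2 was lower in number 2 than in number 1 by 0.96. The limma F test over the 3 numbers gave an adjusted p of 0.0020 for ICAM1 and 0.0119 for CCL2. With only the most abundant transcript row of each gene, 13 genes and 0 members passed this test. CCL2 and ICAM1 have only that row, so their own values were the same there. Their calls changed through the other genes fitted with them. The median difference between number 3 and number 1 was -0.27 over the 9 members and 0.0031 over all tested genes.

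Other NF-kB targets and regulators were read by number in the same way. Of the 15 tested targets 10 differed between numbers (9.68% of all tested genes), 9 of them with number 3 above number 1 (4.84% of all tested genes). The median difference of the 15 targets was 0.43. CD83 had 812, 841 and 1749 normalized counts in shHBO1 libraries 1, 2 and 3, against 970, 923 and 2211 in shCTRL. In the other lists 2 of 5 subunits (NFKB2 and RELB), 5 of 12 inhibitors and feedback genes, 5 of 18 adaptors and kinases and 6 of 16 receptors differed between numbers, where 9.68% of all tested genes did. These list counts are for summed rows. They were not made with the most abundant row alone, where 13 genes in the whole series differed. NFKB2 was higher in number 3 than in number 1 by 0.60, RELB by 0.58, BIRC2 by 0.69 and TLR4 by 1.53 on the log2 scale, and ZFP36 was at -1.02. What sets the number 3 libraries apart was not tested.

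**Figure D4:**
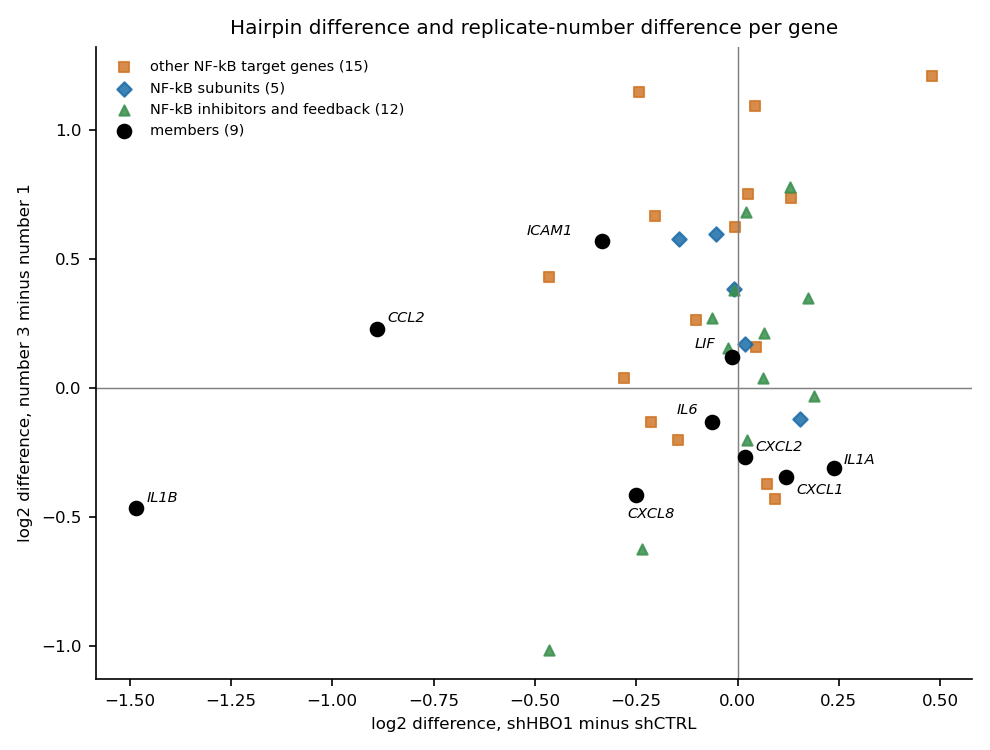
Log2 difference between shHBO1 and shCTRL (x axis) and between number 3 and number 1 (y axis) for the 9 tested members (black circles, named), 15 other NF-kB targets, 5 subunits and 12 inhibitors or feedback genes. IL1B and CCL2 lie to the left at -1.48 and -0.89, whereas most other targets spread along the y axis with a median of 0.43.

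Over the 6 libraries, the genes most like CCL2 in log2 level, among 13212 genes with a mean of at least 50 that are not members, were CCDC88C (r = 0.993), ECE1 (0.992), ZNF702P (0.990), MYO1C (0.988) and VASH1 (0.988). CCDC88C had 440, 355 and 466 normalized counts in shHBO1 libraries 1, 2 and 3, against 541, 421 and 544 in shCTRL, low in both number 2 libraries as CCL2 was. Those most like IL1B were LGMN (r = 0.993), CNOT3 (0.982), CFDP1 (0.979), RPLP2 (0.979) and PRH1 (0.975). LGMN had 1379, 1442 and 1267 in shHBO1 against 1637, 1544 and 1606 in shCTRL. These correlations are descriptions over 6 points that share their libraries. Within the set, CCL2 and ICAM1 had r = 0.856, LIF and ICAM1 had r = 0.856 and IL6 and CXCL8 had r = 0.874, and CXCL1 and ICAM1 had r = -0.80.

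Markers of other cell types were read beside CCL2 and IL1B, which leukocytes also express. Of 11 leukocyte markers 6 were tested and 0 passed in limma, edgeR or DESeq2, with or without the block (CD14 alone at an unadjusted p under 0.05 in limma). The share of all tested genes at that unadjusted p was 3.55% without the block and 11.3% with it. The summed level of the list was 694 to 797 normalized counts in shHBO1 and 707 to 792 in shCTRL, and most of it was CD68, a lysosomal protein of macrophages that other cells also express. CD68 had 462, 633 and 483 in shHBO1 libraries 1, 2 and 3, against 466, 566 and 456 in shCTRL (log2 fold change 0.077, SE 0.16). The monocyte receptor CD14 had 16.8, 24.4 and 14.5 in shHBO1 libraries 1, 2 and 3, against 39.6, 38.4 and 38.8 in shCTRL, without overlap, and CSF1R had 8.41 to 12.5 in shHBO1 against 14.2 to 29.4 in shCTRL, also without overlap. These were 2 of the 6 tested markers, and 4.44% of all tested genes lay lower without overlap. CD14 rests on 15 to 41 reads per library and CSF1R on 9 to 28. CD163, also on this list, did not pass the filter and went the other way. It had 1.87, 2.04 and 2.89 in shHBO1 libraries 1, 2 and 3, against 1.02, 0 and 0 in shCTRL. ITGAM (log2 fold change -0.056) and LYZ (-0.28) overlapped between the groups. PTPRC, the pan-leukocyte antigen CD45, had 14.5 to 50.5 in shHBO1 and 14.7 to 47.7 in shCTRL. CD3E, MS4A1 and NKG7 were each at 0 in 5 of 6 libraries. The part of these genes in the IL1B and CCL2 values was not tested. Of 11 fibroblast and endothelial markers 6 were tested and 0 passed in limma or edgeR, whereas DESeq2 with the block called 1, CDH5. That DESeq2 fit called 1.13% of the genes to which it gave an adjusted p. At an unadjusted p under 0.05 in limma there were 1 without the block and 3 with it, against 3.55% and 11.3% of all tested genes. The summed level of these 11 markers was 1760 to 2235 in shHBO1 and 1569 to 2488 in shCTRL. DCN was at 0 in all 6 libraries, and CDH5, the endothelial cadherin, had 856, 699 and 674 normalized counts in shHBO1 libraries 1, 2 and 3, against 1232, 1029 and 835 in shCTRL, lower in all 3 pairs (log2 fold change -0.46). The collagen genes COL1A1 and COL1A2 and the smooth muscle actin gene ACTA2 were higher in shHBO1 in all 3 pairs, with log2 fold changes of 0.27, 0.33 and 0.45, and the median of the 6 tested markers was 0.24. Among all tested genes 17.1% were lower and 15.3% higher in all 3 pairs.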

How the data were processed

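The authors deposited 1 table of normalized signal, with 58215 RefSeq transcript rows and 1 column per library. The submitters' processing notes name Bowtie 1.2.1.1, SAMtools, DESeq2 and hg19, while the counting rule and strandedness are unknown. Dividing each library's deposited signal by its smallest step gave whole reads for 100% of values (tolerance 0.01 read). Accessions were named from RefSeq (57191) or GENCODE release 29 (646), and 378 with no name, at most 0.0977% of reads, were left out. Rows were summed per gene, so a read counted for several transcripts enters more than once.

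The test was limma-trend (limma 3.58.1, R 4.3.3) on log2(normalized count + 1), a scale that understates changes of low genes. It covered 15173 genes averaging 10 or more, and p-values were adjusted over all of them by the Benjamini-Hochberg method (threshold 0.05). The fits without the block were tested on simulated data, with the same noise setting for every gene and no difference between replicate numbers. The fits with the block were not tested in this way. edgeR 4.0.16 and DESeq2 1.42.0 were run on the recovered reads. Same-numbered libraries deviated together across genes (r = 0.32, 0.19 and 0.48), all above 0.1, although shHBO1 library 1 and shCTRL library 2 also had r = 0.21, so a fit with the number as a block stands beside the main one. Within groups, libraries differed beyond sampling noise. Members and lists were chosen with earlier results of these data known. The rule for named genes took all members, KAT7, CXCL3, up to 3 genes per list and fit with the smallest p, and the 5 most like CCL2 and IL1B. Markers, receptors and cytokines named for being abundant or near 0 were chosen after their values were seen.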

Additional observations from a re-analysis of the deposited data

How the results depend on the processing

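The 21 alternatives kept KAT7 lower and past the threshold, with log2 fold changes from -2.16 to -1.89. The signs for CCL2, IL1B, ICAM1, CXCL8 and IL1A held in each alternative that tested them. In the main fit 1 gene and 0 members passed. With the replicate block limma called 19 genes, edgeR 19 and DESeq2 148, and DESeq2 without the block called 19. Members were called by blocked DESeq2 (2: CCL2 at -0.90 and ICAM1 at -0.33) and by the blocked fit without the number 3 libraries (2 of 2160 genes: CCL2 at -0.87 and ICAM1 at -0.33), which has 1 residual degree of freedom; the cause was not tested. The block changed no other member's call. With the most abundant row alone, 13 genes and 0 members differed between replicate numbers, although the values of CCL2 and ICAM1 were unchanged.

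Signs turned only in IL6, LIF, CXCL2 and CXCL1, whose main estimates lie between -0.064 and 0.12. With the most abundant row IL6 was at 0.15 and LIF at 0.097. CXCL2 was at -0.025 with edgeR, -0.023 with DESeq2 and -0.14 without the number 3 libraries, with or without the block. With 1 library left out in turn, log2 fold changes ran from -1.28 to -0.56 for CCL2, -1.73 to -1.16 for IL1B, -0.56 to -0.11 for ICAM1, -0.37 to -0.093 for CXCL8, 0.14 to 0.40 for IL1A, -0.14 to 0.023 for IL6, -0.041 to 0.29 for CXCL1, -0.11 to 0.27 for CXCL2 and -0.092 to 0.043 for LIF, and 0 members passed. Depth limits IL1B and CCL20, which rest on 9 to 51 and 4 to 12 reads per library.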
